A study of Mus musculus with 12 samples.

Results

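The clade B serpins of mouse bone marrow-derived macrophages (BMDM) were followed through 8 genes, *Serpinb2*, *Serpinb1a*, *Serpinb1c*, *Serpinb6a*, *Serpinb6b*, *Serpinb8*, *Serpinb9* and *Serpinb9b*. They were chosen by symbol from a written list, and they make up 8 of the 28 rows with a Serpinb symbol among 43280 rows in all. The list states no threshold and does not say which comparison it rests on. It was selected on values of these same log2 CPM, with genotype and LPS results in view, so levels and genotype differences are given here as a description, and the LPS tests are no independent support for the choice. Of the 20 Serpinb rows outside the list, 10 had no read in any library and 8 had at most 10 reads, or 0.208 CPM (the reads of a gene scaled to the total of its library). The other two, *Serpinb1b* with 4.45 to 53.9 CPM and *Serpinb12* with 0.910 to 2.48 CPM, passed the filter on low values, which asked for at least 1 CPM in at least 2 libraries. All 8 listed genes passed it as well, *Serpinb2* through its LPS libraries alone.

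BMDM were grown with M-CSF from the marrow of wild type (wt) mice and of mice lacking the myeloid receptor TREML4 (Treml4-/-), both described as C57BL6. They received vehicle (M0) or 100 ng/ml of lipopolysaccharide (LPS), a component of the bacterial envelope used to polarize macrophages to the M1 state, and were taken after 8 h (M1-8 h) or 12 h (M1-12 h). Each of the 6 groups held 2 biological replicates, which gave 12 RNA-seq libraries. The Treml4-/- line had been provided by another laboratory. The labels give no age and do not say which animals or cultures the replicates came from, so that p-values measure the spread between these samples, which may in part be technical.

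Serpins are protease inhibitors that act as suicide substrates. The target protease cuts an exposed reactive loop and is then trapped in a covalent complex. Members of clade B lack a classical secretion signal and act mostly inside cells, where they are known for holding back proteases that leak from granules or lysosomes. Mice carry an expanded set of these genes in a cluster on chromosome 13 and a smaller one on chromosome 1.

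Between 48008751 and 58500792 reads were counted per library, so that 1 read was worth 0.0171 to 0.0208 CPM and 3 reads, the floor used here, 0.0513 to 0.0625 CPM. These floors cover counting error only. *Treml4* had 198 to 663 reads in the 6 wt libraries and 0 reads in the 6 Treml4-/- libraries. The LPS marker *Nos2* rose by 11.49 at 8 h and 11.40 at 12 h on the log2 scale. Summed over 7 macrophage markers, CPM lay between 18875 and 25804 at M0 and between 8398 and 11633 after LPS. The single markers did not move together. *Lyz2* fell from 10416 to 15208 CPM at M0 to 3011 to 6514 CPM after LPS. *Fcgr1* rose from 59.6 to 65.1 CPM to 1105 to 1348 CPM, and *Mertk* from 28.9 to 40.1 CPM to 180 to 302 CPM. Of the other lists, 5 dendritic cell markers together had 0.649 to 1.16 CPM at M0 and 13.8 to 27.3 CPM after LPS, so that both sums moved with LPS, and their part in the LPS results was not tested. Among these 5, *Ccr7* rose to 7.72 to 21.5 CPM and *Xcr1* to 2.36 to 7.19 CPM. *Flt3* fell, from 0.393 to 0.713 CPM at M0 to at most 0.223 CPM after LPS. The 8 T and NK cell markers together had at most 0.964 CPM and 3 B cell markers at most 0.309 CPM.

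*Serpinb2* and *Serpinb8* lie on the plus strand of chromosome 1 of GRCm38, *Serpinb2* from 107511423 to 107535478 and *Serpinb8* from 107590006 to 107610484. The others lie on chromosome 13, in the order *Serpinb1a* from 32842092 to 32851185, *Serpinb1c* from 32881434 to 32898211, *Serpinb6b* from 32965209 to 32979067, *Serpinb9* from 33003250 to 33017957, *Serpinb9b* from 33027416 to 33041884 and *Serpinb6a* from 33917918 to 34002794. Over their longest open reading frames, 3 pairs stood out by identity, with 89.7% of aligned bases for *Serpinb1a* and *Serpinb1c*, 86.4% for *Serpinb9* and *Serpinb9b* and 86.3% for *Serpinb6a* and *Serpinb6b*. The other pairs of members shared 59.8 to 69.1%. Reads of 126 bases still told the paralogs apart, since no 126-base stretch of the transcripts of 7 members occurred in another gene. For *Serpinb2*, 6.485% of such stretches also belonged to its overlapping neighbour *Serpinb10*, which had at most 1 read in any library.

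The bases just before the RefSeq starts are shown for *Serpinb2*, *Serpinb9* and *Serpinb6a*, the first because it was the member nearest to absence at M0 and the others because they carried the same motif and moved in opposite directions. RefSeq windows of GRCm38.p6 were found for 7 of the 8 members, not for *Serpinb1a*. Where a gene had more than 1 start, the outermost is shown, and the *Serpinb9* start lies inside the gene as placed above. Each sequence runs 5′ to 3′ on the strand of the gene and ends at the base before the start, and capitals mark a motif match.
Serpinb2, chr1:107511173-107511422, plus strand: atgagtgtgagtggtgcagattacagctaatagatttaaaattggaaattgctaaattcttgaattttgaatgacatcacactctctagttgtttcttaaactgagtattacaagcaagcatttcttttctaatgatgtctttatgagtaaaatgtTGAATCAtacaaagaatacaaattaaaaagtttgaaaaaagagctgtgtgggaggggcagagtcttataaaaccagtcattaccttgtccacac
Serpinb9, chr13:33004291-33004540, plus strand: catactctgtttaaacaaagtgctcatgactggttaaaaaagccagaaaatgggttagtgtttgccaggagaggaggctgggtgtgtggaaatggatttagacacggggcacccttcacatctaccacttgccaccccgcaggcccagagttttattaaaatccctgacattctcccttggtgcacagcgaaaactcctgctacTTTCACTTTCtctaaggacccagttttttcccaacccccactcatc
Serpinb6a, chr13:34002795-34003044, minus strand: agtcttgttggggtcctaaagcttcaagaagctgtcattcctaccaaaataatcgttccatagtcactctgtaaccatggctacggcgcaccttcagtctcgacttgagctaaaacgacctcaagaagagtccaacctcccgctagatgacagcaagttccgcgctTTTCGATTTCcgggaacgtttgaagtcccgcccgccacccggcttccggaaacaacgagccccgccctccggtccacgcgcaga

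Both strands of the 250 bases were searched for AP-1 (TGANTCA), CRE (TGAC followed by GTCA), an ISRE-like motif (the run GAAA, any 2 bases, and GAAA again) and the kappaB motif. *Serpinb2* held an AP-1 match with its first base at position -94 from the start, and *Serpinb8* held one at -23. *Serpinb9* and *Serpinb6a* each held an ISRE-like match, which reads TTTCACTTTC and TTTCGATTTC on the strand of the gene. Among all 32851 windows of this length, 6.749% held the AP-1 letters, 2.977% the ISRE-like, 1.546% the CRE and 5.933% the kappaB letters. No CRE or kappaB letters were found in the windows of the 7 members.

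At M0, *Serpinb6a* was by far the most abundant clade B serpin mRNA, and after LPS it was *Serpinb9*. Per kilobase of exon, *Serpinb6a* averaged 85.3 CPM over the 4 M0 libraries, against 14.3 for *Serpinb6b*, 12.3 for *Serpinb9*, 10.4 for *Serpinb8* and 9.69 for *Serpinb9b*, whose library ranges overlapped from each to the next. *Serpinb1c* at 1.66 and *Serpinb1a* at 0.555 CPM per kilobase followed without overlap, and *Serpinb2* was lowest at 0.0865. At M1-8 h the order per kilobase was *Serpinb9* at 115.4, *Serpinb1a* at 57.0 and *Serpinb6a* at 42.0, none overlapping the next. At M1-12 h *Serpinb9* reached 178.8 and *Serpinb1a* 64.4 CPM per kilobase, and *Serpinb6a* at 26.3 and *Serpinb6b* at 24.8 overlapped. *Serpinb2* and *Serpinb1c* were the lowest members at both times and overlapped each other.

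The family as a whole took up more of the RNA after LPS. Counted as reads, without regard to length, all Serpinb rows together had 556 to 673 CPM at M0, 765 to 1088 CPM at M1-8 h and 1037 to 1228 CPM at M1-12 h. *Serpinb6a* made up 71.9 to 76.3% of those reads at M0, 22.0 to 24.7% at M1-8 h and 9.87 to 14.8% at M1-12 h. *Serpinb9* went from 6.51 to 7.18% at M0 to 39.5 to 43.2% at M1-8 h and 54.6 to 61.7% at M1-12 h. *Serpinb1a* held at most 0.239% of the reads at M0 and 12.4 to 15.3% after LPS. In bulk RNA, fewer cells of a type and less RNA per cell cannot be told apart.

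**Figure D1:**
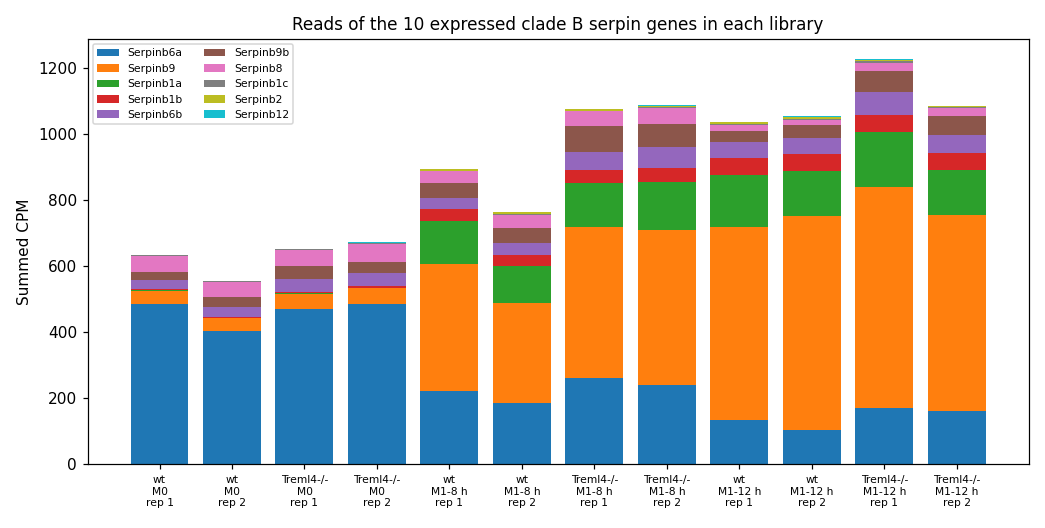
Stacked bars give the CPM of the 10 Serpinb genes that passed the filter in each of the 12 libraries. *Serpinb6a* fills most of each M0 bar, 71.9 to 76.3%, and *Serpinb9* most of each M1-12 h bar, 54.6 to 61.7%.

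LPS was compared with M0 over both genotypes by limma on log2(CPM + 1), where the added 1 CPM shrinks the fold change of genes with few reads. A gene was called differentially expressed (DEG) when it changed at least 1.4-fold and its adjusted p (Benjamini-Hochberg, over the 12086 genes tested) was under 0.05. At 8 h, 4 of the 8 members were higher DEG, where 17.1% of all tested genes were, and 1 was a lower DEG, where 59.8% of all tested genes were. At 12 h, 5 were higher DEG and 2 lower, against 16.3% and 60.3% of all tested genes. The median log2 fold change of the 8 members was 0.66 at 8 h and 0.64 at 12 h, and that of all tested genes -0.72 and -0.76. Values scaled to library size cannot tell a shift of most genes from a change in total RNA, so the changes are also given under median of ratios scaling, which by its construction brings the medians near 0, to -0.04 at both times. Under that scaling all tested genes gave 3762 higher and 3792 lower DEG at 8 h, in place of 2070 and 7225, and 3949 higher and 3943 lower at 12 h, in place of 1965 and 7284. Of the members, 6 were higher and 0 lower DEG at 8 h under median of ratios scaling, and 6 were higher and 1 lower at 12 h. Quantile normalization gave 3350 higher and 4358 lower of all tested genes at 8 h and 3586 higher and 4373 lower at 12 h. Of the members, 5 were then higher and 1 lower at 8 h, and 6 higher and 2 lower at 12 h. The member counts under every scaling include *Serpinb2*, which passed the filter through its LPS libraries alone.

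Of the 8 listed members, *Serpinb1a*, *Serpinb9* and *Serpinb2* rose most, under every scaling tried, and in both genotypes. *Serpinb1a* encodes an inhibitor of the neutrophil granule proteases elastase, proteinase 3 and cathepsin G. Its M0 libraries had 1.20 and 0.846 CPM in wt and 1.47 and 1.61 CPM in Treml4-/- cells. At M1-8 h it had 131.6 and 113.2 CPM in wt and 133.2 and 146.8 CPM in Treml4-/- cells, and at M1-12 h 158.7, 133.3, 163.9 and 137.0 CPM in the same order. No LPS library came near the M0 level, and the ranges at 8 h and 12 h overlapped. The mean was 103-fold higher at 8 h and 116-fold higher at 12 h. On the log2(CPM + 1) scale *Serpinb1a* changed by 6.39 and 6.62 under median of ratios scaling. At library size scaling the changes were 5.86 (SE 0.10, adjusted p = 4.67e-13) and 6.04 (SE 0.10, adjusted p = 4.25e-13) by limma, and the step from 8 h to 12 h of 0.17 was no DEG (adjusted p = 0.134, limma; 95% interval -0.035 to 0.384).

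*Serpinb9*, the inhibitor of the cytotoxic protease granzyme B, was already present at M0, with 41.4 and 37.7 CPM in wt and 46.9 and 46.6 CPM in Treml4-/- cells. It had 384 and 302 CPM in wt and 457 and 470 CPM in Treml4-/- cells at M1-8 h. At M1-12 h the values were 585 and 650 CPM in wt and 670 and 594 CPM in Treml4-/- cells. The 3 stages did not overlap, so that *Serpinb9* was one of the members that kept rising. Its log2 fold change was 3.18 at 8 h (SE 0.08, adjusted p = 1.46e-11, limma) and 3.83 at 12 h (SE 0.08, adjusted p = 3.69e-12, limma), a 14.5-fold higher mean. These were 3.96 and 4.66 under median of ratios scaling. Between 8 h and 12 h it rose by a further 0.65 (SE 0.08, adjusted p = 4.38e-05, limma).

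*Serpinb2* encodes plasminogen activator inhibitor 2, which blocks the urokinase and tissue plasminogen activators. It was nearly absent at M0, with 34 and 4 reads in the wt libraries (0.656 and 0.0787 CPM) and 2 reads in each Treml4-/- library (0.0407 and 0.0374 CPM). At M1-8 h it had 4.52 and 6.65 CPM in wt and 3.95 and 4.39 CPM in Treml4-/- cells. At M1-12 h it had 5.12 and 6.25 CPM in wt and 3.98 and 3.19 CPM in Treml4-/- cells. Every LPS library was above every M0 library, although the Treml4-/- M0 libraries lay under the floor of 3 reads. From pooled reads the ratio of M1-8 h to M0 was 107 in Treml4-/- cells (471 against 4 reads, exact 95% interval 41.4 to 393) and 15.2 in wt (582 against 38 reads, 10.9 to 21.7), intervals that cover counting error only. On the log2(CPM + 1) scale the changes of *Serpinb2* were 2.30 at 8 h and 2.23 at 12 h (SE 0.15 each), and 2.58 and 2.55 under median of ratios scaling. No p is given for them, since *Serpinb2* entered the fit only through the libraries where it was high, and without it 3 of 7 members were higher DEG at 8 h and 4 of 7 at 12 h. With voom on whole reads, which has no such pseudocount, the changes were 5.46 and 5.36. The step from 8 h to 12 h was -0.07 (adjusted p = 0.702, limma; 95% interval -0.39 to 0.25).

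**Figure D2:**
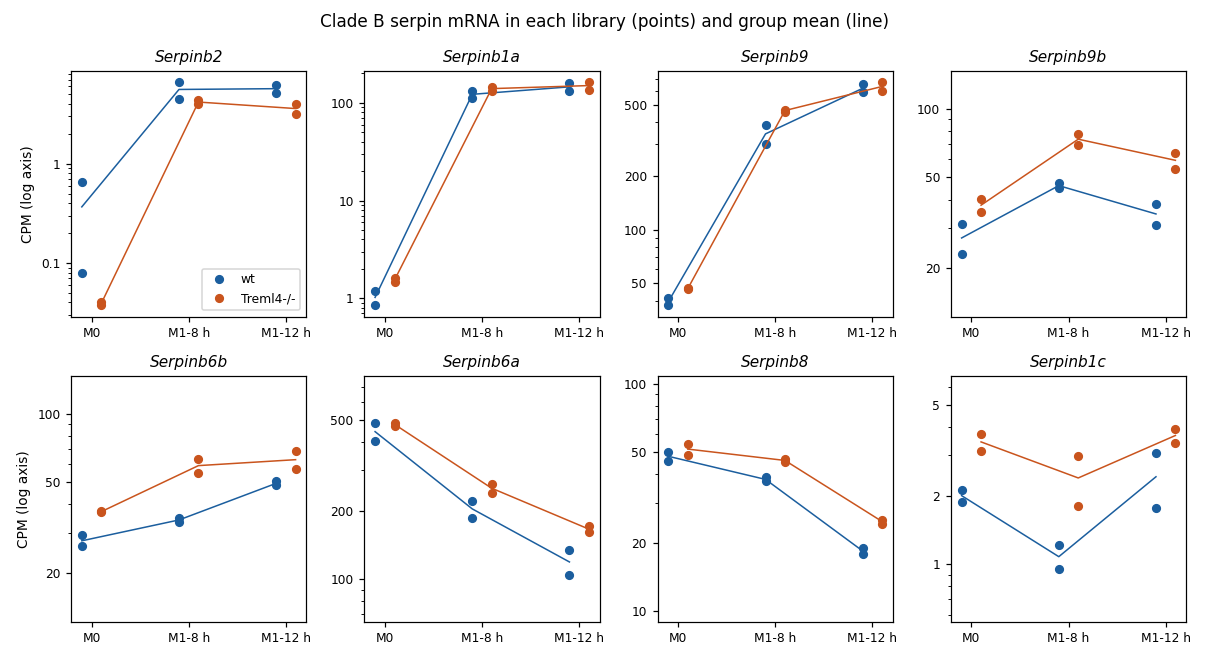
Each panel plots the CPM of 1 member on a log axis at the 3 stages, with 1 point per library, 2 libraries per genotype and stage, and lines through the group means. *Serpinb1a*, *Serpinb9* and *Serpinb2* lie higher in every LPS library than in any M0 library, *Serpinb6a* lies lower, and the panels of *Serpinb9b*, *Serpinb6b* and *Serpinb1c* show the wt points under the Treml4-/- points at all 3 stages.

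*Serpinb9b* and *Serpinb6b* rose moderately. *Serpinb9b*, the paralog next to *Serpinb9*, had 23.1 and 31.1 CPM in wt and 40.3 and 35.3 CPM in Treml4-/- cells at M0. It peaked at M1-8 h, with 45.0 and 47.1 CPM in wt and 78.0 and 69.3 CPM in Treml4-/- cells, and had 31.0, 38.2, 64.3 and 54.7 CPM at M1-12 h. The log2 change was 0.85 at 8 h (SE 0.11, adjusted p = 1.19e-05, limma) and 0.49 at 12 h (SE 0.11, adjusted p = 9.86e-04, limma). *Serpinb9b* gave 1.63 and 1.32 under median of ratios scaling. The change at 12 h, 1.41-fold, lay just past the minimum of 1.4-fold. It fell short of the minimum, with 0.39, 0.42, 0.45 and 0.44, when wt M0 replicate 1, wt M1-12 h replicate 2, Treml4-/- M0 replicate 2 or Treml4-/- M1-12 h replicate 1 was left out.

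*Serpinb6b* had 26.1 and 29.2 CPM in wt and 36.9 and 37.3 CPM in Treml4-/- cells at M0. At M1-8 h it had 33.4 and 34.8 CPM in wt and 54.7 and 63.5 CPM in Treml4-/- cells. At M1-12 h it had 50.4 and 48.4 CPM in wt and 68.2 and 57.2 CPM in Treml4-/- cells, all above M0. At 8 h its change of 0.47 on the log2 scale (SE 0.08, adjusted p = 1.03e-04, limma) was 1.39-fold and just short of the minimum, and it became a DEG without wt M0 replicate 2 at 0.51, wt M1-8 h replicate 1 at 0.49 or Treml4-/- M1-8 h replicate 1 at 0.53. At 12 h *Serpinb6b* rose by 0.78 (SE 0.08, adjusted p = 1.36e-06, limma). Relative to the median of all genes, the changes were 1.20 and 1.53.

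*Serpinb6a* and *Serpinb8* went the other way. *Serpinb6a*, the main form of a serpin known to inhibit cathepsin G, had 485 and 404 CPM in wt and 470 and 487 CPM in Treml4-/- cells at M0. It had 221 and 186 CPM in wt and 262 and 239 CPM in Treml4-/- cells at M1-8 h, and 134.0, 104.0, 171.3 and 160.5 CPM at M1-12 h. The 3 stages did not overlap. Its log2 fold change was -1.03 at 8 h (SE 0.09, adjusted p = 6.99e-07, limma) and -1.71 at 12 h (SE 0.09, adjusted p = 6.88e-09, limma), which is 0.30 and 0.95 below the median of all genes. Under median of ratios scaling it was -0.23 at 8 h, no DEG, and -0.86 at 12 h, still a DEG.

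*Serpinb8*, an inhibitor of the proprotein convertase furin, had 50.3 and 45.7 CPM in wt and 48.7 and 54.5 CPM in Treml4-/- cells at M0. It had 37.2 and 38.8 CPM in wt and 45.3 and 46.7 CPM in Treml4-/- cells at M1-8 h, which overlapped the M0 range. At M1-12 h it had 19.0 and 17.8 CPM in wt and 25.3 and 24.3 CPM in Treml4-/- cells, under every earlier library. The change was -0.24 at 8 h (SE 0.07, adjusted p = 0.00426, limma), no DEG for its size, and -1.18 at 12 h (SE 0.07, adjusted p = 7.75e-09, limma). Under median of ratios scaling the value at 8 h turned to 0.54, a higher DEG, and the value at 12 h shrank to -0.35, no DEG. The fall from 8 h to 12 h did not hang on the scaling, at -0.94 (SE 0.07, adjusted p = 6.26e-07, limma) and -0.89.

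*Serpinb1c*, the neighbour and close paralog of *Serpinb1a*, did not share its rise. It had 1.87 and 2.12 CPM in wt and 3.14 and 3.74 CPM in Treml4-/- cells at M0, 0.949, 1.21, 1.79 and 2.98 CPM at M1-8 h, and 3.07, 1.77, 3.94 and 3.40 CPM at M1-12 h. Over both genotypes the stages overlapped, whereas within each genotype the libraries at M1-8 h lay under those at M0. The log2 fold change was -0.47 at 8 h (SE 0.14, adjusted p = 0.00858, limma), 1.38-fold lower and short of the minimum, and 0.12 at 12 h (SE 0.14, adjusted p = 0.440, limma). In wt alone the change at 8 h was -0.53 and a lower DEG (adjusted p = 0.0282, limma), and in Treml4-/- cells it was -0.41 and no DEG (adjusted p = 0.0786, limma), and the difference between the genotypes was no DEG. Under median of ratios scaling the values over both genotypes became 0.06 and 0.72, the latter a higher DEG. *Serpinb1b*, a further copy not on the list, had 4.45 to 5.57 CPM at M0, 34.2 to 42.7 CPM at M1-8 h and 49.1 to 53.9 CPM at M1-12 h, with log2 fold changes of 2.72 and 3.16, both DEG. *Serpinb12* was a DEG at neither time, and a higher one at both under median of ratios scaling, with 0.50 and 0.74.

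Between 8 h and 12 h of LPS, 2 members rose, *Serpinb9* and *Serpinb1c*, and 2 fell, *Serpinb6a* and *Serpinb8*. Of all tested genes, 13.5% were higher and 18.7% lower DEG, and the median log2 fold change was -0.06. *Serpinb1c* rose by 0.59 (SE 0.14, adjusted p = 0.00416, limma) on values of at most 3.94 CPM, and fell short without wt M1-12 h replicate 1, at 0.45, or without Treml4-/- M1-8 h replicate 1, at 0.46. With no filter on low values it was no DEG (adjusted p = 0.0575, limma, with 0.00119 to 0.0575 over its alternatives). *Serpinb6a* fell by 0.68 (SE 0.09, adjusted p = 8.94e-05, limma). *Serpinb6b* at 0.30 and *Serpinb9b* at -0.36 had adjusted p-values of 0.00556 and 0.0133 by limma but missed the 1.4-fold minimum.

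**Figure D3:**
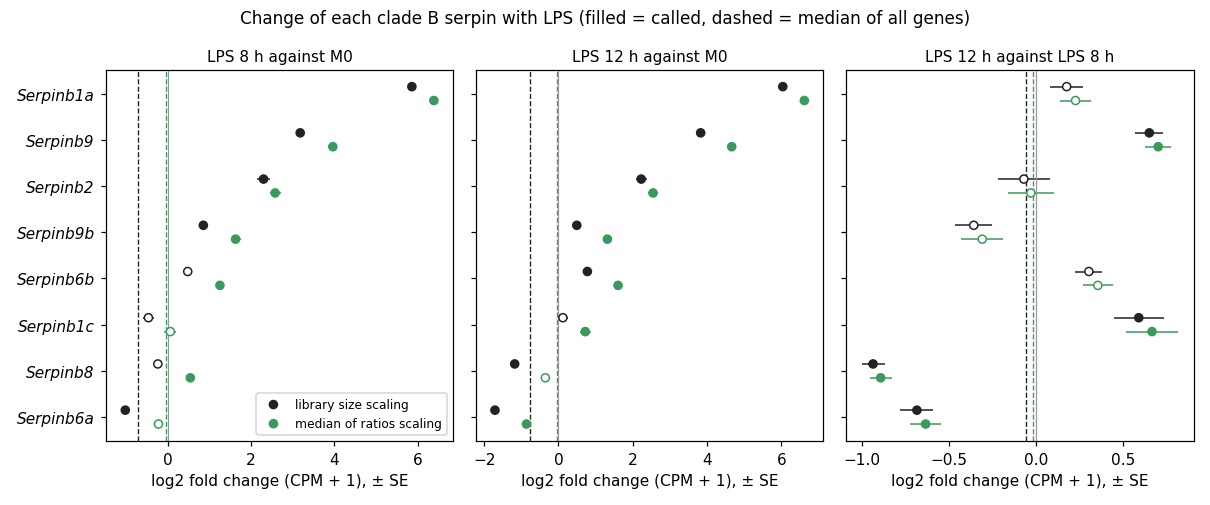
The log2 fold change of log2(CPM + 1) with its SE is drawn for each member in 3 comparisons, at library size scaling (dark) and median of ratios scaling (green), with filled points for DEG, open points for the rest and dashed lines at the median of all tested genes. *Serpinb1a*, *Serpinb9*, *Serpinb2*, *Serpinb9b* and *Serpinb6b* lie right of 0 under both scalings in the comparisons with M0, whereas *Serpinb8* at 8 h moves from -0.24 to 0.54.

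The genotypes were compared within each stage as wt minus Treml4-/-, and these values are a description, since genotype results were known when the list was drawn. *Serpinb2* was the member with more mRNA in wt, and the other 7 had lower means in wt at every stage. The small differences of *Serpinb1a* and *Serpinb9* at M1-12 h, -0.04 and -0.03, turned to 0.04 and 0.05 under median of ratios scaling. The median log2 fold change of the members was -0.29 at M0 and -0.37 at both LPS times, with -0.03, -0.07 and -0.05 over all tested genes. Of the 8 members, 0 were DEG before LPS, 1 after 8 h and 0 after 12 h, where 0.0993%, 0.091% and 0.132% of all tested genes were. These shares hung on single libraries, since the 12 genes at M0 became 219 without wt M0 replicate 1, the 11 after 8 h became 598 without Treml4-/- M1-8 h replicate 1, and the 16 after 12 h became 79 without wt M1-12 h replicate 1. Both wt libraries lay under both Treml4-/- libraries for 5 members before LPS, 7 after 8 h and 5 after 12 h, as did 18.0%, 33.9% and 30.8% of all tested genes.

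*Serpinb1c*, *Serpinb6b* and *Serpinb9b* were lower in wt without overlap at all 3 stages, a pattern that 2.53% of tested genes had. They belong to different paralog pairs, and their partners *Serpinb1a*, *Serpinb6a* and *Serpinb9* did not show it. *Serpinb6b* was 1.34-fold higher in Treml4-/- cells at M0, 1.73-fold at M1-8 h and 1.27-fold at M1-12 h. It was the DEG at 8 h of LPS, where its log2 difference was -0.77 (SE 0.11), and was no DEG under median of ratios or quantile scaling, without the filter on low values, or with the 4 libraries of that stage alone. It was also lost when 1 of 7 of the 12 libraries was left out, namely either wt M1-8 h, either wt M1-12 h, either Treml4-/- M0 or the second Treml4-/- M1-8 h library. *Serpinb9b* was 1.39-fold, 1.60-fold and 1.72-fold higher in Treml4-/- cells, with log2 fold changes of -0.48, -0.66 and -0.77 (SE 0.15 each). *Serpinb1c* was 1.72-fold, 2.22-fold and 1.52-fold higher in Treml4-/- cells, with log2 fold changes of -0.56, -0.69 and -0.47 (SE 0.20 each). Some of these differences rested on 1 library, with -0.27 for *Serpinb9b* at M0 without wt replicate 1, -0.21 for *Serpinb6b* at M1-12 h without Treml4-/- replicate 1, -0.43 for *Serpinb1c* at M1-8 h without Treml4-/- replicate 2, and -0.20 for *Serpinb1c* at M1-12 h without wt replicate 2.

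*Serpinb2* was higher in wt without overlap at all 3 stages, as were 1.31% of tested genes. The gap was narrow at M0, where 0.0787 CPM in wt stood next to 0.0407 CPM in Treml4-/- cells, near the floor of 3 reads. It was also narrow at M1-8 h, with 4.52 against 4.39 CPM. The difference at M0 rested on wt replicate 1, whose 34 reads stood against 4 reads in wt replicate 2. Over both libraries, 38 wt reads against 4 Treml4-/- reads gave a ratio of 9.49 (exact 95% interval 3.42 to 36.6, counting error only), and the log2(CPM + 1) difference of 0.36 dropped to 0.05 without that library. The same wt M0 library had 1.25 CPM summed over 4 fibroblast markers, where the other M0 libraries had 0.243 to 0.472 CPM. In that library *Col1a1* alone had 1.14 CPM and *Col3a1* 0.116 CPM, and *Dcn* and *Pdgfra* had 0 CPM. The B cell marker sum was also highest there among the M0 libraries, at 0.309 CPM against 0.0187 to 0.0815 CPM. The neutrophil marker sum was 135.6 CPM in that library and 48.8 CPM in wt replicate 2, with 119.6 to 159.8 CPM in the Treml4-/- M0 libraries. The part of any of these cell types in the result was not tested. After LPS the wt mean was 1.34-fold higher at M1-8 h and 1.59-fold higher at M1-12 h, with log2 fold changes of 0.33 and 0.54 (SE 0.21 each). The value at M1-8 h was 0.10 without wt replicate 2 and 0.57 without wt replicate 1.

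*Serpinb1a* and *Serpinb9* were 1.51-fold and 1.18-fold higher in Treml4-/- cells at M0, 1.14-fold and 1.35-fold at M1-8 h, and 1.03-fold and 1.02-fold at M1-12 h, where the genotypes overlapped. *Serpinb6a* and *Serpinb8* had the opposite course, with genotypes that overlapped at M0 and did not at M1-8 h and M1-12 h. At M1-12 h *Serpinb6a* was 1.39-fold and *Serpinb8* 1.35-fold higher in Treml4-/- cells. The log2 difference of *Serpinb6a* there was -0.49, and -0.31 without wt replicate 2 and -0.67 without wt replicate 1. For *Serpinb9* at M1-8 h it was -0.44, and -0.27 without wt replicate 2 and -0.62 without wt replicate 1. For *Serpinb8* at M1-8 h it was -0.27, and -0.14 under median of ratios scaling. Summed over 10 neutrophil markers, CPM were 72.5 to 76.5 in wt and 84.6 to 108.8 in Treml4-/- libraries at M1-8 h, and overlapped at M0 and M1-12 h, with *Ly6g* at no more than 0.131 CPM in any library. The macrophage marker sum was higher in wt without overlap at every stage, with 21266 to 25804 CPM against 18875 to 19125 at M0, 10344 to 11633 against 8739 to 9367 at 8 h, and 8839 to 9514 against 8398 to 8666 at 12 h. *Lyz2* weighed most in that sum, with 5007 and 6514 CPM in wt and 4254 and 4019 CPM in Treml4-/- libraries at M1-8 h. The single macrophage markers disagreed at that stage. *Cd68*, *Cd14* and, narrowly, *Fcgr1* were higher in wt as well, and *Csf1r* overlapped. *Itgam* and *Mertk* were lower in wt without overlap, *Itgam* with 1160 and 1091 CPM against 1237 and 1176 CPM. Both sums, though not every marker, thus moved with the genotype at the stage where 7 members did. Their part in the result was not tested.

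**Figure D4:**
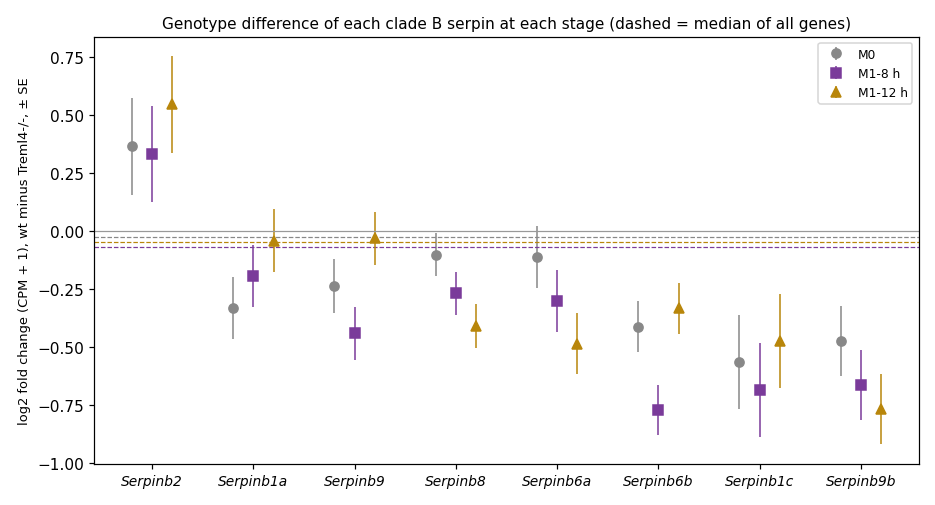
Points give the log2(CPM + 1) difference of wt minus Treml4-/- with its SE for each member at M0, M1-8 h and M1-12 h (2 libraries per genotype), and dashed lines the median of all tested genes at each stage. *Serpinb2* lies above 0 at 0.33 to 0.54, where the added 1 CPM shrinks its value at M0. *Serpinb1c*, *Serpinb6b* and *Serpinb9b* lie at -0.33 or below at every stage.

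Whether LPS changed a member differently in the genotypes was tested as the difference of differences. None of the 8 members passed by limma, with a lowest adjusted p of 0.729 for *Serpinb6b* at 8 h and adjusted p-values of 0.999 at 12 h. At each time 1 of the 8 had an unadjusted p under 0.05. *Serpinb2* is counted among the 8, though it entered the fit only through its LPS libraries, so its result here is no test. With voom on whole reads 0 of the 8 passed as well. Of all tested genes, 0.00827% passed at 8 h and 0.00827% at 12 h. An unadjusted p under 0.05 by limma was found for 6.67% of them at 8 h and 3.82% at 12 h. For *Serpinb6b* the difference at 8 h was -0.36 with a 95% interval of -0.70 to -0.02, and for *Serpinb8* at 12 h it was -0.31 with an interval of -0.60 to -0.02. For *Serpinb2* the intervals ran from -0.68 to 0.62 at 8 h and from -0.47 to 0.83 at 12 h. They hold on the log2(CPM + 1) scale, where the added 1 CPM shrinks its M0 values, so they do not bound its induction in reads. Pooled reads gave M1-8 h to M0 ratios of 107 in Treml4-/- cells and 15.2 in wt. Those rested on 4 and 38 M0 reads, most of the wt reads from replicate 1, and their difference was not tested.

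The proteases that clade B serpins are known to act on, and their close partners, were taken from a list of 31 genes, of which 19 passed the filter. At 8 h, 7 were higher and 8 lower DEG, and at 12 h 8 were higher and 7 lower, where 17.1% and 16.3% of all tested genes were higher and 59.8% and 60.3% lower. Under median of ratios scaling 10 were higher and 3 lower at 8 h, and 11 were higher and 5 lower at 12 h. Each list is a count and was put to no test of its own. In the plasminogen activator system, the protease gene *Plau* (urokinase) fell while its receptor *Plaur* rose with *Serpinb2*. *Plau* averaged 183 CPM at M0 and 43.8 CPM after 8 h of LPS, with changes of -2.05 at 8 h and -1.85 at 12 h on the log2 scale. *Plaur* rose by 2.21 and 2.14. *Plgrkt*, a plasminogen receptor, rose at 12 h by 0.63, and *Plat* and *Plg* did not pass the filter. The directions of *Plau* and *Plaur* held as DEG under median of ratios and quantile scaling.

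The neutrophil-type proteases *Elane*, *Prtn3* and *Ctsg*, targets of the protein made by *Serpinb1a*, were lower DEG at 12 h under every scaling tried. *Elane* averaged 7.55 CPM at M0, 3.03 CPM after 8 h and 0.398 CPM after 12 h, with log2 fold changes of -1.01 and -2.48. *Prtn3* fell by 0.68 and 1.43. *Ctsg* had -0.39 at 8 h, no DEG, and fell by 1.42 at 12 h. The neutrophil marker *Mpo* went with them, from 6.98 to 31.5 CPM at M0 to 0.516 to 1.17 CPM at M1-12 h, as did *Ngp*, from 10.8 to 34.8 CPM at M0 to at most 4.91 CPM, and *Ltf*, from 4.90 to 20.1 CPM at M0 to at most 2.61 CPM. *Elane* is itself on that marker list. *S100a8*, also on it, went the other way, from 8.79 to 26.4 CPM at M0 to 30.6 to 47.6 CPM at M1-12 h. The part of neutrophil-lineage cells in these falls was not tested. At 8 h none of the 3 proteases was a DEG under median of ratios scaling, with -0.37 for *Elane*, -0.13 for *Prtn3* and 0.08 for *Ctsg*. None of the 10 granzyme and perforin genes passed the filter, and *Gzmb*, the target of the *Serpinb9* product, had at most 2 reads in any library. The furin gene *Furin* rose at 8 h by 1.09 and at 12 h had 0.21, no DEG (1.06 and a DEG under median of ratios scaling).

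The caspase genes *Casp4*, *Casp1* and *Casp8* rose at both times and under every scaling tried, *Casp4* by 3.86 and 3.52, *Casp1* by 2.06 and 2.30 and *Casp8* by 1.52 and 1.10. Of 7 lysosomal cathepsin genes, 5 fell at 8 h, among them *Ctsd* by 1.64 and *Ctsl* by 1.04, where 59.8% of all tested genes were lower DEG. At 12 h 3 were lower and 1, *Ctsh* at 0.96, higher, where 60.3% and 16.3% of all tested genes were. The median log2 fold change of the 7 was -0.81 at 8 h and -0.47 at 12 h, against -0.72 and -0.76 over all tested genes. *Ctsb* and *Ctss* fell at 8 h by 0.56 and 0.81 and were no DEG at 12 h, *Ctsk* fell by 1.59 and 0.64, and *Ctsz* at 0.02 and 0.34 was a DEG at neither time. The cathepsins hung on the scaling. Under median of ratios scaling 2 were lower at 8 h, *Ctsd* at -0.84 and *Ctsk* at -0.80, and 2 higher, *Ctsh* and *Ctsz*, *Ctsb* turned to 0.24, and at 12 h 3 were higher and 1 lower. None of the 19 genes was a DEG between genotypes at any stage.

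Serpins of other clades gave 39 rows, of which 6 passed the filter. At 8 h 5 of the 6 were higher DEG and at 12 h all 6, and none was lower, where 17.1% and 16.3% of all tested genes were higher DEG. Named by their highest CPM, not scaled to length, were *Serpina3g*, which reached 1620 CPM, and *Serpina3f* with 302 CPM, and their log2 fold changes at 8 h were 9.92 and 8.05.

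The members fell into groups by their course over the 12 libraries, where all pairs share libraries and the LPS steps, so that Pearson's r is given as a description. *Serpinb1a*, *Serpinb9* and *Serpinb2* had r of 0.935 to 0.989 with each other on the log2(CPM + 1) scale, *Serpinb6a* and *Serpinb8* had 0.902, and *Serpinb6a* had -0.912 with *Serpinb9*. *Serpinb6b* and *Serpinb9b* had 0.758. *Serpinb1a* and *Serpinb1c*, the pair with the highest identity, had -0.150. Among all tested genes outside the list, *Serpinb1a* was most like *P4ha1*, *Gbp6* and *Ddx58*, each with r of 0.999. *Serpinb9* was most like *Oas1b*, *Serpinb1b* and *Pde7b* at 0.997 to 0.998, and *Serpinb2* most like *A530032D15Rik*, *Ube2r2* and *Fzd1* at 0.986 to 0.988. *Serpinb6a* was most like *D6Wsu163e*, *Abcg2* and *Pon3* at 0.993 to 0.996 and *Serpinb8* most like *Ubl3*, *Mycbp2* and *Mtmr1* at 0.982 to 0.986. *Serpinb9b* was most like *Pydc3* at 0.908, *Kitl* at 0.861 and *Spryd7* at 0.853. *Serpinb6b* was most like *Gm16372*, *Dennd1b* and *Mrps18c* at 0.926 to 0.944, and *Serpinb1c* most like *Zfp583*, *Fam83h* and *Dnajb4* at 0.901 to 0.920. Pearson's r does not measure the size of a change. Over all libraries *Ube2r2* lay between 79.5 and 109.0 CPM, *Gm16372* between 0.656 and 1.35 CPM and *Zfp583* between 0.873 and 1.85 CPM.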

How the data were processed

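The data were 12 RNA-seq libraries of BMDM, wt and Treml4-/-, at M0, M1-8 h and M1-12 h. The authors made poly(A)-selected, stranded libraries, processed the reads with STAR and Subread, and deposited log2 CPM per gene with a prior of 0.25 reads. The submitters' processing notes name mm10. Strand use in counting is not given in the sources used here. Plain CPM had been planned for, so the prior and the log2 were first undone. Whole reads came back for 100% of values (within 0.05 reads), at 48008751 to 58500792 reads per library. The log2(CPM + 1) values of all 12 libraries entered a limma fit (version 3.58.1, R 4.3.3) of 6 group means, with a variance trend and Benjamini-Hochberg adjustment. It held the 12086 genes that reached 1 CPM in 2 or more libraries. The test was checked on simulated data.

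The members and gene lists were chosen with earlier results of these data known. The text names the 8 members, other Serpinb genes that passed the filter, the listed proteases and partners that passed it, the 3 highest serpins of other clades, the LPS and knockout checks and the 3 genes most like each member. Some genes that this rule takes in are not reported here. *Il6* rose by 7.35 and *Tnf* by 3.89 at 8 h as further LPS checks, and *Acod1* was not analysed here. Of the marker lists, 5 mast cell and basophil markers to at most 0.244 CPM. Positions came from a GENCODE annotation of GRCm38, the same assembly as mm10, and sequences from RefSeq windows. Identities came from Biopython 1.88 alignments. Python 3.11.15, numpy 2.4.6, pandas 2.3.3 and matplotlib 3.10.9 were used. Replicates of a group differed by more than sampling noise (chi-square per degree of freedom 13.4 or more) and were kept apart. Alternatives were a pseudocount of 0.1, the filter dropped or raised to 5 CPM, a block for replicate number, culture as a random block, other scalings, no trend, fewer libraries, no minimum fold, voom on the whole reads and leaving out each library.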

Additional observations from a re-analysis of the deposited data

How the results depend on the processing

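Counts of members called were recomputed for 8 comparisons. At 8 h against M0 the count moved from 5 to 8 without the minimum fold change and lay between 5 and 6 with 1 library left out. At 12 h against M0 it was 7 and lay between 6 and 7 with 1 library left out, and at 12 h against 8 h it was 4 and lay between 3 and 4, and between 3 (filter dropped or at 5 CPM) and 6 (no minimum fold change) under the other settings. For wt against Treml4-/- at M1-8 h the count of 1 became 0 with no filter, median of ratios scaling, quantile normalization or the libraries of that comparison only, and lay between 0 and 2 with 1 library left out. Over all tested genes, DEG between genotypes with the libraries of a comparison only were 6 at M0 and 5 at M1-8 h, in place of 12 and 11, and with voom 10 at M1-12 h, in place of 16. The filter at 5 CPM removed *Serpinb1c*. Direction reversed for *Serpinb1c* at 8 h, to 0.06 with median of ratios and 0.20 with quantile normalization, for *Serpinb8* at 8 h, to 0.54 and 0.24, and for *Serpinb2* between 12 h and 8 h, to 0.0058 with quantile normalization. With 1 library left out, *Serpinb1c* at 12 h ranged from -0.020 to 0.26 and *Serpinb2* between 12 h and 8 h from -0.19 to 0.047. The causes of these changes were not tested, other than the scaling itself.

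The replicate numbers were not taken to pair the libraries, since the labels name no shared animal or culture and same-numbered libraries deviated with between-genotype correlations of -0.264 (M0), 0.297 (M1-8 h) and 0.056 (M1-12 h). Pairs of stages within wt had 0.125, 0.062 and 0.406, those within Treml4-/- had 0.462, -0.199 and -0.272, and with culture as a random block no count of members called moved. With the replicate block the counts were 5, 7 and 4 for the LPS comparisons and 0, 1 and 0 for the genotype comparisons, and the block changed no call of a count. With blocks crossed at M0 or at Treml4-/- M1-12 h, chosen after seeing the data, the count for wt against Treml4-/- at M1-8 h became 3 and 2 members, and 421 and 282 of all tested genes in place of 11. The deposited log2 CPM used directly was also tried after seeing the data. Depth limits *Serpinb2* at M0, where 3 of 4 libraries had at most 4 reads.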
